A study of Homo sapiens with 16 samples.

Results

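The proteasome is the protease that removes ubiquitin-tagged proteins from the cytosol and nucleus. Its barrel-shaped 20S core carries the catalytic sites inside rings of alpha and beta subunits, the 19S cap binds, unfolds and deubiquitinates substrates, and activators such as PA28 and PA200 can take the place of the cap. Subunit genes are usually transcribed together, and in mammalian cells the transcription factor NFE2L1 raises many of them when proteasome capacity is short.

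Messenger RNA of proteasome subunits and assembly factors was measured in HepG2 cells, a human hepatoma line, on 16 Affymetrix arrays. The members were the genes whose single platform symbol starts with PSMA to PSMG followed by a digit. They comprised 41 genes on 65 probe sets, of 11963 genes on 19065 probe sets with 1 symbol. All 41 passed the filter on low signals. PSMC3IP and PSME3IP1 entered by their symbols and encode no proteasome subunit. The symbols PSMA6, PSMA8, PSMB11, PSMC5, PSMD7, PSMD13, PSME2, PSMG3 and PSMG4 met the rule on no probe set and were not analysed as members here.

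The 4 groups of 4 arrays were cells given a recombinant adenovirus for GPI-phospholipase D (GPI-PLD) and cultured for 12 h, cells given the LacZ (beta galactosidase) control adenovirus for 12 h, and the same viruses at 6 h, GPI-PLD and LacZ. All cells were thus transduced with an adenovirus, and no untransduced cells were among the samples. Time in culture and time since transduction therefore cannot be told apart here. The sources used here do not give the vectors' promoter or the dose of virus. The study compared global gene expression between the viruses at each time. GPI-PLD is the secreted enzyme that cleaves glycosylphosphatidylinositol anchors of membrane proteins.

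Signals are MAS5 intensities, the deposited values. Array medians ran from 304.5 to 377.6, and the mean correlation of an array with the rest of its group was 0.940 to 0.944 in GPI-PLD 12 h arrays, against 0.952 to 0.965 in the other 3 groups. The 5 probe sets of GPLD1, the gene of GPI-PLD, had signals between 4.0 and 452 in all arrays, and none was called between the viruses at either time (limma, adjusted p 0.913 or higher). Whether these probe sets can detect the vector's transcript was not tested, so the groups are named here by their labels alone. All 8 hepatocyte markers measured, albumin and alpha-fetoprotein among them, were above the filter, the lowest (TTR) at the 92.3 percentile of probe sets. Of the markers of other cell types, 2 of 4 leukocyte, 1 of 4 endothelial and 3 of 5 fibroblast genes were above it, with PTPRC, CD14, VWF, CDH5, KDR, COL3A1 and LUM below. Those above were LYZ, at a mean signal of 9632 and the 97.1 percentile, and CD3E, PECAM1, COL1A1, COL1A2 and DCN, at the 46.7 to 68.4 percentiles.

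With time in culture, signals of most proteasome genes were lower. Between 12 h and 6 h, 32 of 41 members had a lower mean log2 signal in GPI-PLD cells and 34 of 41 in LacZ cells, against 48.4% and 49.4% of the 8102 genes tested. The median log2 difference of the members (12 h minus 6 h) was -0.14 in GPI-PLD cells and -0.15 in LacZ cells, against 0.01 for all genes in both. The differences ran from -1.01 to 0.60 in GPI-PLD cells and from -0.42 to 0.30 in LacZ cells. In both cell sets 27 of 41 members were lower, 65.9%, against 30.9% of all genes tested. These shares and medians were not compared with those of genes of like signal. In bulk RNA, fewer cells of a kind and less RNA per cell cannot be told apart, and each signal is relative to its array's total.

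**Figure D1:**
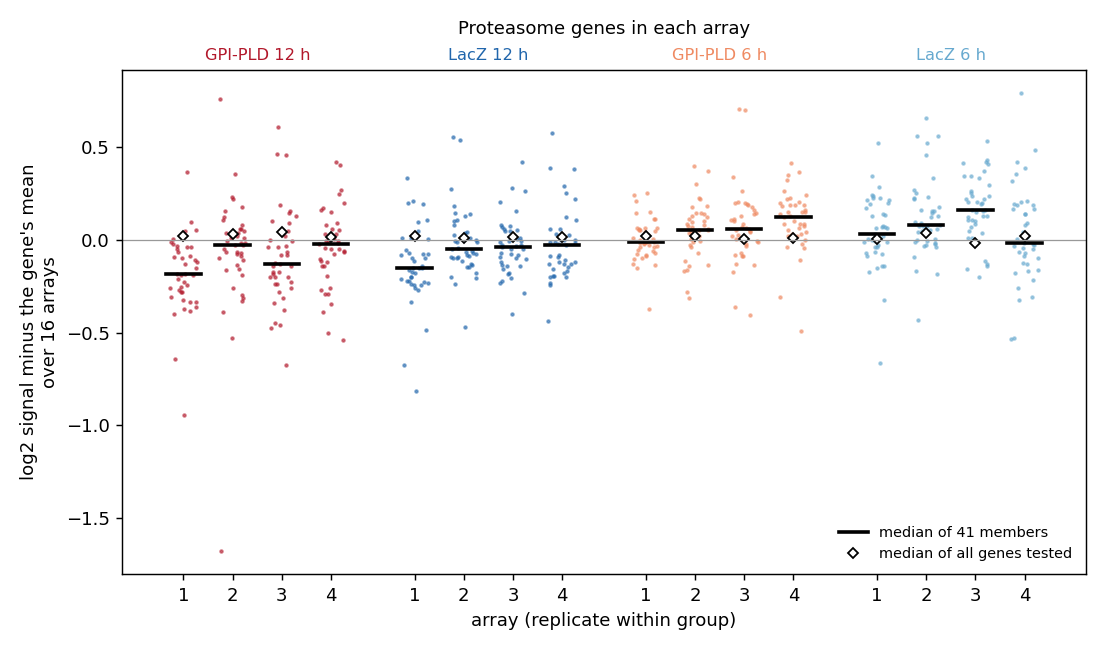
Log2(signal + 63) of the 41 members in each of the 16 arrays, minus each gene's mean over the 16 arrays; points are genes, black bars the members' median and open diamonds the median of all 8102 genes tested. The members' median was -0.18 to -0.02 in the 8 arrays at 12 h and -0.02 to 0.16 in the 8 arrays at 6 h, while the median of all genes stayed within -0.02 and 0.04.

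Fewer members passed the test one by one. After adjustment over all 8102 genes (limma, Benjamini-Hochberg adjusted p under 0.05), 4 of 41 members fell in GPI-PLD cells and 0 rose, against a background of 5.07% of all genes lower and 4.60% higher. In LacZ cells 6 of 41 fell and 0 rose, against 3.25% lower and 3.64% higher. At an unadjusted p under 0.05, 16 members were lower and 0 higher in GPI-PLD cells, against 11.7% and 11.1% of all genes, and 10 were lower and 1 higher in LacZ cells, against 9.68% and 10.5%. As shares of the member list, the called genes were 9.76% in GPI-PLD cells and 14.6% in LacZ cells, a description for which no test of the list was made.

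With both viruses averaged, a contrast chosen after the data were seen, 38 of 41 members were lower, against 47.2% of all genes. Of the 41, 9 were called and fell, against 8.33% of all genes called lower and 7.79% called higher. The 9 were PSMA2, PSMA7, PSMD11, PSMA3, PSMD10, PSMC1, PSMA4, PSMB8 and PSMD2, with log2 differences of -0.63 to -0.19 and adjusted p of 8.75e-05 to 0.0238. PSMC4, with the next smallest p, had -0.25 ± 0.09 (SE) and an adjusted p of 0.0501. The call of PSMD2 was lost in 4 of 16 runs that omitted 1 array (LacZ 6 h replicates 2 and 3, GPI-PLD 6 h replicate 4 and LacZ 12 h replicate 1, adjusted p 0.0526 to 0.0573). That of PSMB8 was lost without GPI-PLD 6 h replicate 3 (0.0513).

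In 7 of 41 members all 4 arrays of GPI-PLD cells at 12 h lay below all 4 at 6 h, against 7.86% of all genes, and in 8 of 41 members this held in LacZ cells, against 6.22%. No member had all 12 h arrays above the 6 h arrays in either. The share of all genes with this pattern was not counted, so that result has no background beside it. Replicates of a group varied less for the members than for all genes, with a median log2 SD of 0.15 against 0.24 in GPI-PLD 12 h, 0.12 against 0.20 in LacZ 12 h, 0.10 against 0.19 in GPI-PLD 6 h and 0.16 against 0.23 in LacZ 6 h. Most members had mean signals well above the array medians, and the spread was not compared with that of genes of like signal.

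**Figure D2:**
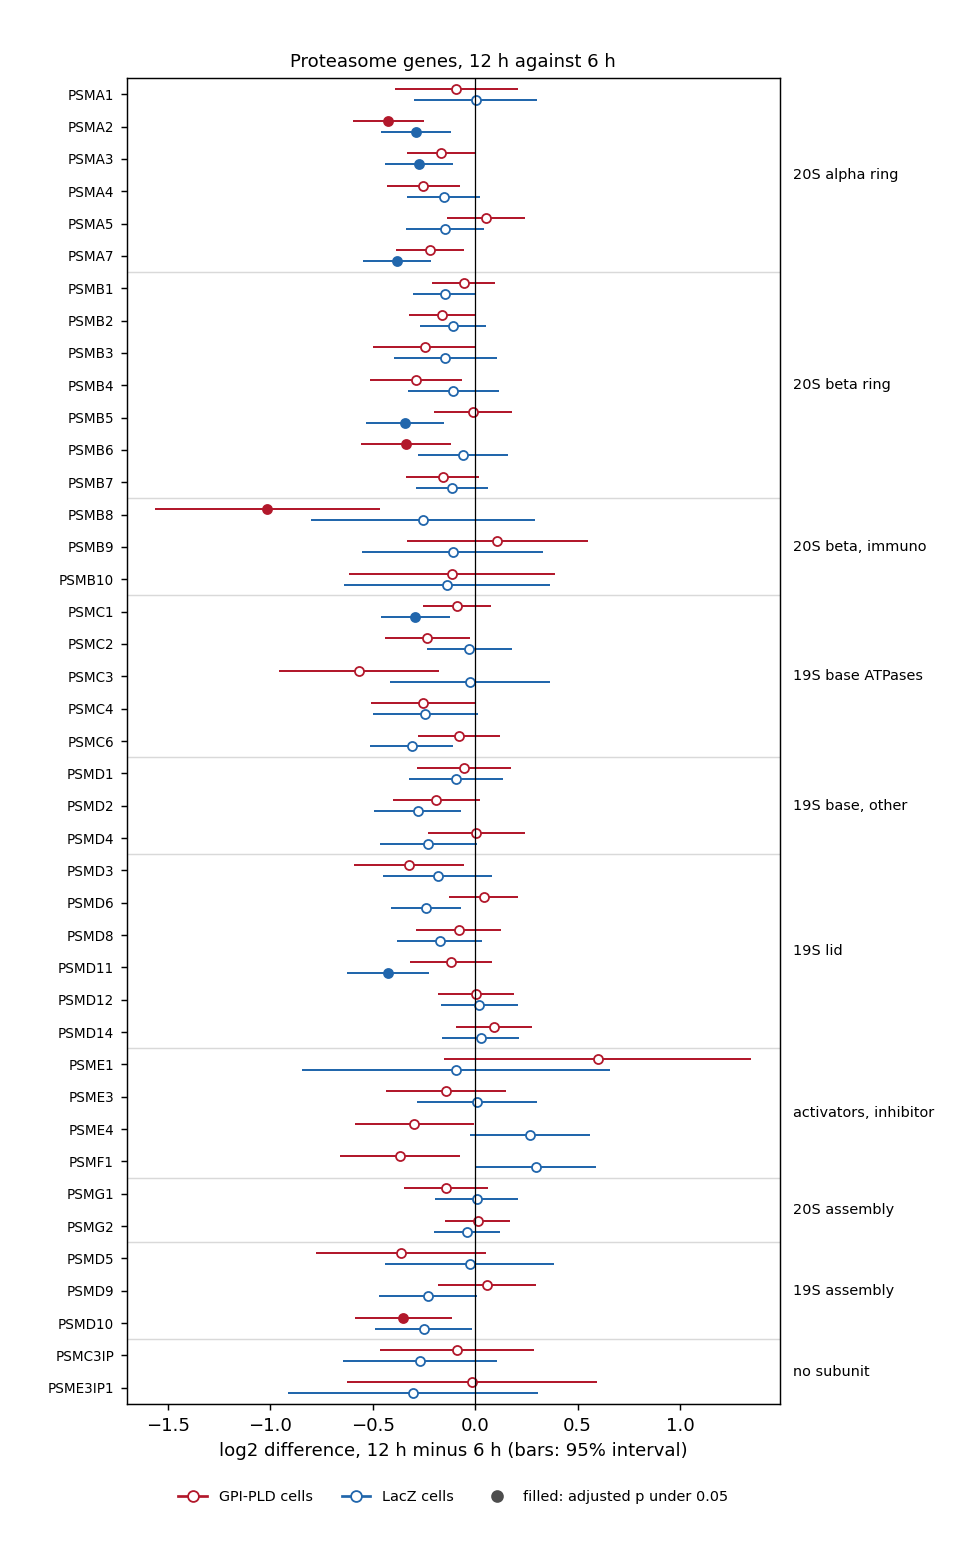
Log2 difference between 12 h and 6 h for each of the 41 members, with its 95% interval, in GPI-PLD cells (red) and LacZ cells (blue), grouped by place in the complex; filled points have an adjusted p under 0.05 over all 8102 genes. All 10 filled points lie below 0, from -1.01 for PSMB8 in GPI-PLD cells to -0.27 for PSMA3 in LacZ cells.

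Most genes of the 20S core had lower signals at 12 h. Of 16 core genes, which include the 3 immunoproteasome genes described below, 14 were lower at 12 h in GPI-PLD cells with 3 called. In LacZ cells 15 were lower with 4 called, and the median log2 differences were -0.16 and -0.15. Of all genes, 48.4% were lower and 5.07% called lower in GPI-PLD cells, and 49.4% and 3.25% in LacZ cells. These shares also stand beside the counts of the base, the lid and the other lists below. The alpha ring, whose subunits form the gate and the docking surface, had 5 of 6 lower in both, with medians of -0.19 and -0.21. All 7 genes of the constitutive beta ring, which holds the protease sites, were lower in both, with medians of -0.16 and -0.11.

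PSMA2, an alpha ring subunit (probe set 201317_s_at), fell in both cell sets. In GPI-PLD cells its signals were 6586, 8339, 6694 and 7068 at 12 h, against 10047, 9609, 9753 and 9017 at 6 h. In LacZ cells they were 7575, 8029, 8315 and 7556 at 12 h, against 10366, 9030.1, 9797 and 9342 at 6 h. In both, all arrays at 12 h lay below all arrays at 6 h. The log2 difference was -0.42 ± 0.08 (SE, n = 4 arrays a group) in GPI-PLD cells (limma, adjusted p = 0.00111) and -0.29 ± 0.08 in LacZ cells (0.0293). Its dimmer probe set had differences of -0.31 ± 0.19 in GPI-PLD cells and -0.26 ± 0.19 in LacZ cells, and neither passed the test. The call in GPI-PLD cells held in all 16 runs that omitted 1 array. In LacZ cells it was lost without 6 h replicate 1 or 3, or 12 h replicate 1, 2 or 4 of the LacZ arrays (adjusted p 0.0577 to 0.0888). With the gene's probe sets averaged, the calls in both cell sets were lost (limma, adjusted p = 0.059 in GPI-PLD and 0.199 in LacZ cells).

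PSMA7, another alpha ring subunit (201114_x_at), fell in LacZ cells. Its signals there were 13716, 15589, 15079 and 13992 at 12 h, against 18713, 18863, 20467 and 18066 at 6 h. In GPI-PLD cells they were 14126, 13437, 14612 and 15649 at 12 h, against 16714, 17803, 14720.0 and 18339.5 at 6 h. The LacZ arrays did not overlap between the times, while the GPI-PLD arrays did, through the replicates at 15649 and 14720.0. PSMA7 had a log2 difference of -0.38 ± 0.08 in LacZ cells (adjusted p = 0.00295), a call kept in all 26 alternatives, and -0.22 ± 0.08 in GPI-PLD cells (0.0784). PSMA3, also of the alpha ring, had a mean signal of 8579 ± 161 (SD, n = 4) at 12 h in LacZ cells, against 10416 ± 876 at 6 h, a log2 difference of -0.27 ± 0.08 (adjusted p = 0.0338), and -0.16 ± 0.08 in GPI-PLD cells (0.211). Its call was lost without LacZ 6 h replicate 1, 2 or 4 or any 1 of the 4 LacZ 12 h arrays (adjusted p 0.0548 to 0.117). PSMA4 had -0.25 ± 0.08 in GPI-PLD cells (0.0580) and -0.15 ± 0.08 in LacZ cells, and PSMA1 and PSMA5 had differences between -0.15 and 0.05.

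Among the beta subunits, PSMB5 carries the chymotrypsin-like site, the main target of clinical proteasome inhibitors, and PSMB6 the caspase-like site. PSMB5 signals (208799_at) in LacZ cells were 25357, 28506, 27984 and 25855 at 12 h, against 27604, 33652, 37379.8 and 38839.8 at 6 h. In GPI-PLD cells its signals were 27732, 33085, 29582 and 31493 at 12 h, against 27619.6, 31272, 32312 and 31497 at 6 h. The LacZ arrays overlapped through 1 low array at 6 h, replicate 1, and the GPI-PLD arrays covered nearly the same range at both times. LacZ cells had a log2 difference of -0.34 ± 0.09 (adjusted p = 0.0204), and GPI-PLD cells one of -0.01 ± 0.09 (0.965). Omitting LacZ 6 h replicate 3 or 4, or LacZ 12 h replicate 1 or 4, ended the call (0.0612 to 0.0812).

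PSMB6 (208827_at) fell in GPI-PLD cells. Its signals there were 5085, 5783, 5204 and 6114 at 12 h, against 6429.5, 6972, 7377 and 7269 at 6 h, with no overlap. In LacZ cells they were 5805, 6120.1, 6352 and 5493 at 12 h, against 5842, 7231, 7065 and 4897 at 6 h, where the 6 h arrays lay on both sides of the 12 h arrays. The log2 difference was -0.34 ± 0.10 in GPI-PLD cells (adjusted p = 0.0421) and -0.06 ± 0.10 in LacZ cells (0.825). Omitting 1 array ended the call in 7 of 16 runs, for GPI-PLD 12 h replicates 1, 2 and 3, GPI-PLD 6 h replicates 2, 3 and 4 and LacZ 12 h replicate 2 (0.0502 to 0.124). The difference between the time effects of the cell sets was not called for PSMB5 (0.33 ± 0.13, adjusted p = 0.526) or PSMB6 (-0.28 ± 0.15, 0.701). PSMB7, which carries the trypsin-like site, and PSMB1, PSMB2, PSMB3 and PSMB4 had differences of -0.29 to -0.06, none called.

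The immunoproteasome subunits PSMB8, PSMB9 and PSMB10 replace the catalytic beta subunits in cells exposed to interferon, and PSMB8 takes the place of PSMB5. PSMB8 (209040_s_at) had the lowest log2 difference of all members. In GPI-PLD cells its signals were 527, 129.8, 382 and 363 at 12 h, against 494, 737, 944 and 735 at 6 h. In LacZ cells they were 557, 528, 687 and 554 at 12 h, against 643, 911, 763 and 543 at 6 h. Among the GPI-PLD arrays, 12 h replicate 2 was the lowest, and 12 h replicate 1 lay above the lowest array at 6 h, so the groups overlapped.

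The PSMB8 log2 difference was -1.01 ± 0.26 in GPI-PLD cells (adjusted p = 0.0142), a signal 2.02-fold lower on the log2(signal + 63) scale, and -0.26 ± 0.26 in LacZ cells (0.662). Without GPI-PLD 12 h replicate 2 the difference in GPI-PLD cells was -0.68, still called, and without GPI-PLD 6 h replicate 3 it was -0.89 and not called (0.0632). PSMB9 had differences of 0.11 ± 0.21 in GPI-PLD and -0.11 ± 0.21 in LacZ cells, and PSMB10 of -0.11 ± 0.24 and -0.14 ± 0.24. Neither was called, and mean signals of these 3 genes were between 350.3 and 727 in every group. Their median log2 SE of 0.24 was wider than the 0.10 of the 41 members.

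**Figure D3:**
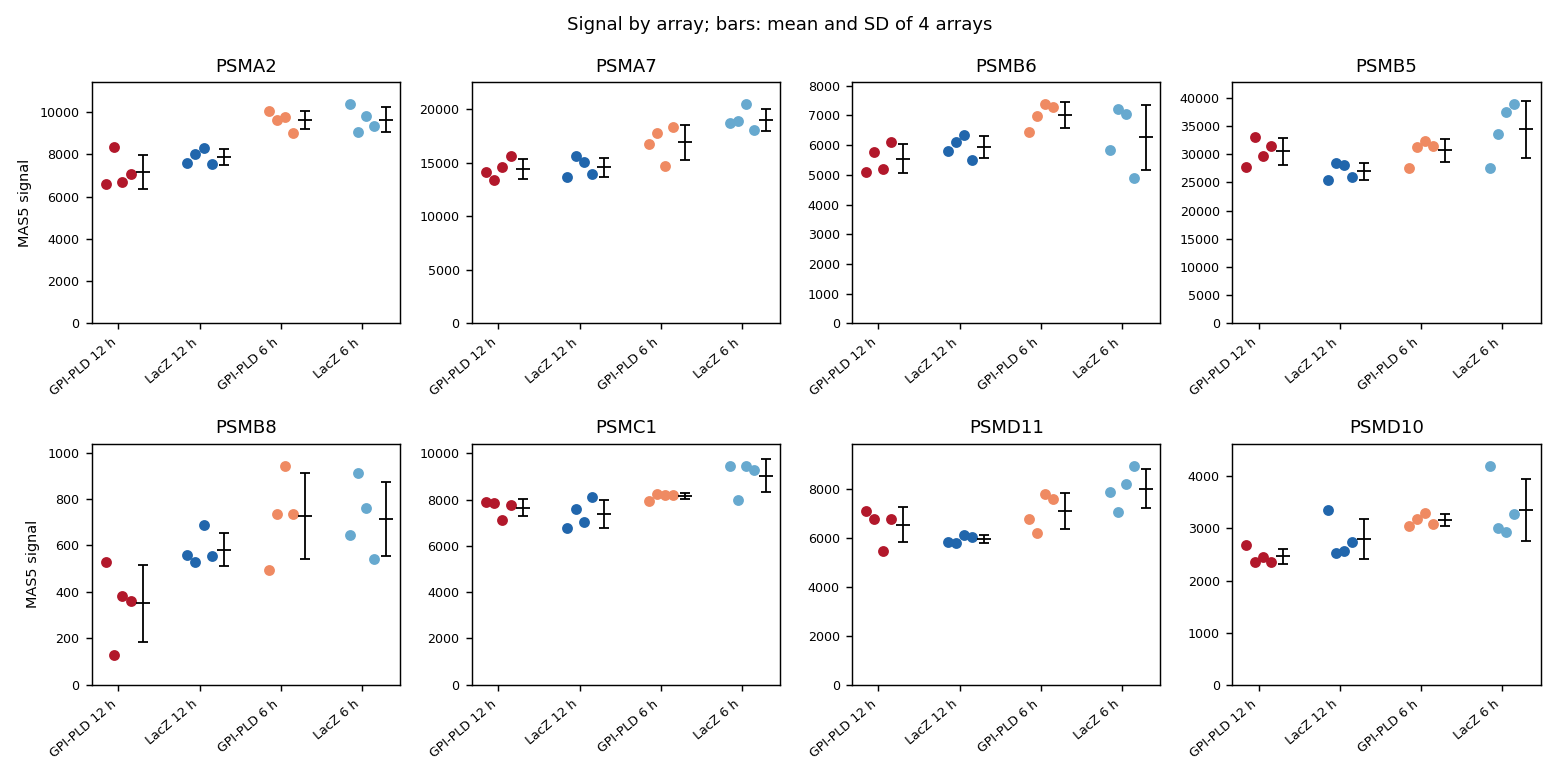
MAS5 signal of the 8 members whose single-array values are described for the time comparisons, in GPI-PLD 12 h, LacZ 12 h, GPI-PLD 6 h and LacZ 6 h arrays; points are arrays, bars the mean and SD of 4 arrays, and each axis starts at 0. In PSMA2 all 8 arrays at 12 h (6586 to 8339) lie below all 8 at 6 h (9017 to 10366), and in PSMB8 the lowest array is GPI-PLD 12 h replicate 2 at 129.8.

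In the base of the 19S cap, whose ring of ATPases unfolds substrates, 7 of 8 genes were lower in GPI-PLD cells with 0 called (limma, 3 at an unadjusted p under 0.05), and 8 of 8 in LacZ cells with 1 called (median log2 differences -0.14 and -0.24). PSMC1, an ATPase with a tail that docks into the alpha ring (204219_s_at), had signals of 6772, 7598, 7038 and 8090.3 in LacZ cells at 12 h, against 9454, 7964, 9465 and 9272 at 6 h. In GPI-PLD cells they were 7897, 7859, 7108 and 7751 at 12 h, against 7947, 8233, 8182 and 8203 at 6 h. The LacZ arrays overlapped by 1 array on each side, and in GPI-PLD cells all 12 h arrays were below the 6 h arrays.

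The PSMC1 log2 difference was -0.29 ± 0.08 in LacZ cells (adjusted p = 0.0226) and -0.09 ± 0.08 in GPI-PLD cells (0.537). Its call was lost without LacZ 6 h replicate 1, 3 or 4, or LacZ 12 h replicate 1 or 3 (0.0527 to 0.0888). PSMC3, another ATPase, had the lowest difference of the base in GPI-PLD cells at -0.57 ± 0.19 (0.0576) and -0.03 ± 0.19 in LacZ cells. PSMC6 had -0.31 ± 0.10 in LacZ cells (0.0509) with no overlap between the times, and -0.08 ± 0.10 in GPI-PLD cells. Of the non-ATPases, PSMD2, a scaffold that binds ubiquitin-like shuttle factors, had -0.19 ± 0.10 in GPI-PLD cells and -0.28 ± 0.10 in LacZ cells (0.0995), and the ubiquitin receptor PSMD4 had 0.01 ± 0.11 and -0.23 ± 0.11. PSMD1, the other large scaffold of the base, had -0.05 ± 0.11 in GPI-PLD cells and -0.10 ± 0.11 in LacZ cells. The ATPases PSMC2 and PSMC4 had -0.23 ± 0.10 and -0.25 ± 0.12 in GPI-PLD cells, and -0.03 ± 0.10 and -0.24 ± 0.12 in LacZ cells, none called.

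The 19S lid, which removes ubiquitin chains, was split in GPI-PLD cells, with 3 genes lower, 3 higher and 0 called (limma, 1 at an unadjusted p under 0.05), and a median of -0.04. In LacZ cells 4 of 6 were lower and 1 was called, with a median of -0.18. PSMD11 (208777_s_at), a lid scaffold subunit that supports assembly of the full complex, had signals of 5819.6, 5778, 6113 and 6034 in LacZ cells at 12 h, against 7853, 7041, 8210.0 and 8947 at 6 h, with no overlap. In GPI-PLD cells its signals were 7078, 6786, 5474 and 6756 at 12 h, against 6768, 6204, 7785 and 7572 at 6 h, and these overlapped.

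The log2 difference of PSMD11 was -0.42 ± 0.09 in LacZ cells (adjusted p = 0.00568), kept in all 26 alternatives, and -0.12 ± 0.09 in GPI-PLD cells (0.489). Its dimmer probe set had -1.06 ± 0.32 in LacZ arrays and -0.46 ± 0.32 in GPI-PLD arrays, neither called. With the mean of both probe sets the difference in LacZ cells was -0.74. PSMD14, the deubiquitinase of the lid, had 0.09 ± 0.09 in GPI-PLD cells and 0.03 ± 0.09 in LacZ cells, and PSMD12 had 0.00 ± 0.09 and 0.02 ± 0.09. PSMD3 had -0.32 ± 0.13 and -0.18 ± 0.13, PSMD8 -0.08 ± 0.10 and -0.17 ± 0.10, and PSMD6 0.04 ± 0.08 and -0.24 ± 0.08, none called.

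No activator, nor the inhibitor PSMF1, was called with time. In GPI-PLD cells 3 of 4 were lower, and in LacZ cells 1 of 4, with median log2 differences of -0.22 and 0.14 and 0 called in either (limma, 2 and 1 at an unadjusted p under 0.05). PSME1, an interferon-inducible PA28 subunit, had the highest difference of any member in GPI-PLD cells, 0.60 ± 0.35, and -0.09 ± 0.35 in LacZ cells. Its signals spread from 5464 to 14865 over the arrays. In GPI-PLD cells 12 h replicates 1, 2 and 3 (11317, 14865 and 13388) lay above all arrays at 6 h (6209 to 9068). Replicate 4 (6158) lay below them. In LacZ cells the times overlapped. PSME3, the nuclear PA28 subunit, had -0.14 ± 0.14 and 0.01 ± 0.14. PSMF1 had -0.37 ± 0.14 in GPI-PLD cells (adjusted p = 0.102) and 0.30 ± 0.14 in LacZ cells (0.229), and the activator PSME4 had -0.30 ± 0.14 (0.203) and 0.27 ± 0.14 (0.287).

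Of the assembly chaperones, PSMG1 and PSMG2, which pair to build the alpha ring, had differences of -0.14 to 0.01 with 0 of 2 called and 0 at an unadjusted p under 0.05 (limma). PSMD10 (gankyrin, 219485_s_at), a chaperone of the base that is also described as a liver oncoprotein, fell in GPI-PLD cells. Its signals there were 2677, 2354, 2459 and 2361 at 12 h, against 3043, 3183, 3301 and 3084 at 6 h. In LacZ cells they were 3348, 2525, 2558 and 2748 at 12 h, against 4205, 3009, 2925 and 3272 at 6 h. The GPI-PLD arrays did not overlap between the times, while in LacZ cells 12 h replicate 1 lay above 3 arrays at 6 h.

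The log2 difference of PSMD10 was -0.35 ± 0.11 in GPI-PLD cells (adjusted p = 0.0481) and -0.25 ± 0.11 in LacZ cells (0.201). The call in GPI-PLD cells was lost in 11 of 16 runs that omitted 1 array (0.0502 to 0.123). These were GPI-PLD 12 h replicates 2, 3 and 4, all 4 GPI-PLD 6 h arrays, LacZ 12 h replicates 2, 3 and 4, and LacZ 6 h replicate 4. PSMD5 and PSMD9, further base chaperones, had -0.36 ± 0.20 and 0.06 ± 0.11 in GPI-PLD cells, and -0.03 ± 0.20 and -0.23 ± 0.11 in LacZ cells. PSMC3IP and PSME3IP1 had differences of -0.30 to -0.02 and were not called.

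Second probe sets gave a partial check. Of the 17 members with several, 12 had the same sign in all their probe sets in each time comparison and 5 did not. All probe sets were lower at 12 h for 11 of the 17 in GPI-PLD cells and 10 in LacZ cells. Of the 65 probe sets, 49 were lower at 12 h in GPI-PLD cells and 50 in LacZ cells. The share of all probe sets that were lower was not counted. PSMB5, PSMB6, PSMB8, PSMC1, PSMC3, PSMC6, PSMA3 and PSMD10 had 1 each. Probe sets whose names end in s_at or x_at can hold probes that match more than 1 transcript.

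Promoters were read because most members had lower signals at 12 h. Of the 41 members, 36 had a promoter in the RefSeq table (GRCh38.p14), and the 250 bases before the start were searched on both strands for 3 motifs, none of which is part of another. CCAAT, the letters bound by the factor NF-Y, was in 17 of 36 member promoters (47.2%) and in 33.0% of all 27305. TGACNNNGC, the core of the antioxidant response element read by NFE2L1 and its relatives, was in 10 (27.8%) and in 11.0%. CCGGAAG, read by ETS factors, was in 7 (19.4%) and in 8.82%. Of the 7 members called with time in either cell set that had a promoter there, PSMA2, PSMA3, PSMB5 and PSMD10 held a motif, CCAAT in each. Any of the 3 motifs was thus in 4 of 7 called members and in 24 of all 36, which include the 7. The motifs differed, since CCAAT was in 4 of the 7 and in 17 of the 36, while no called member held TGACNNNGC or CCGGAAG. Whether called members hold a motif more or less often was not tested on so few genes.
Shown are the stretches around CCAAT in the 3 of these 4 called members with the largest mean time effect. CCAAT, or ATTGG where it lies on the other strand, is in capitals, with 10 flanking bases. The stretches end 70, 62 and 4 bases before the start.
PSMA2 (chr7:42932244-42932268, minus strand): tgactctcctCCAATcatagagagt
PSMD10 (chrX:108091604-108091628, minus strand): aaggccggtgATTGGtgaagctcta
PSMA3 (chr14:58244798-58244839, plus strand): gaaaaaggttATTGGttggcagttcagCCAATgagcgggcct
PSMA2 and PSMD10 have 1 such motif each and PSMA3 has 2 in opposite orientations. A match is a description of letters, and binding was not measured.

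Of 14 other proteasome-bound proteins and assembly factors tested, 0 fell and 1 rose in GPI-PLD cells, and 2 fell and 1 rose in LacZ cells, against 5.07% of all genes lower and 4.60% higher in GPI-PLD cells and 3.25% and 3.64% in LacZ cells. The share called in GPI-PLD cells was thus near the background. POMP, the maturation factor of the core, fell in LacZ cells (-0.44 ± 0.09, adjusted p = 0.00226) and had -0.23 ± 0.09 in GPI-PLD cells (0.113). SEM1, a small lid subunit without a PSM symbol, fell in LacZ cells (-0.39 ± 0.11, 0.0228) and had -0.32 ± 0.11 in GPI-PLD cells (0.0533). The call of SEM1 was lost without LacZ 6 h replicate 1, 2 or 3, or LacZ 12 h replicate 1, 2 or 3 (0.0505 to 0.0835). ZFAND5, a stress-induced protein that binds the proteasome and promotes degradation, rose by 0.63 ± 0.09 in GPI-PLD cells (1.99e-05) and 0.76 ± 0.09 in LacZ cells (1.57e-06), and all 3 of its probe sets were higher.

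In the pathway of NFE2L1, 6 genes were tested. NFE2L2, the related factor of the oxidative stress response, rose by 0.66 ± 0.07 in GPI-PLD cells (adjusted p = 6.08e-07) and 0.58 ± 0.07 in LacZ cells (4.61e-06). UFD1, part of the VCP complex that extracts proteins from the endoplasmic reticulum, fell by 0.71 ± 0.11 on the log2 scale in GPI-PLD cells (7.76e-05) and 0.50 ± 0.11 in LacZ cells (0.00476). VCP, NPLOC4 and NGLY1 were not called, and of 3 ubiquitin and E1 genes tested 0 were called (limma, 0 in GPI-PLD and 1 in LacZ cells at an unadjusted p under 0.05).

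NFE2L1 itself rose with time in GPI-PLD cells. Its signals there were 4282, 4542, 4918 and 3527 at 12 h, against 3358, 2758, 2184 and 3045 at 6 h, with no overlap. In LacZ cells they were 3521, 3292, 2631 and 2505 at 12 h, against 2726, 3716, 2660.2 and 3029 at 6 h, overlapping throughout. The log2 difference was 0.60 ± 0.14 in GPI-PLD cells (adjusted p = 0.00646, kept in all 26 alternatives) and -0.02 ± 0.14 in LacZ cells (0.958). The difference between these, 0.63 ± 0.20, was not called (0.466). Its other 2 probe sets had 0.28 ± 0.11 and 0.19 ± 0.11 in GPI-PLD cells and 0.01 ± 0.11 and 0.20 ± 0.11 in LacZ cells, none of them called, so the probe sets of this gene disagree in size.

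No proteasome gene was called between the viruses at either time. At 12 h 0 of 41 members were called between GPI-PLD and LacZ cells (limma), where 0% of all genes were called, and 23 were lower and 18 higher, with a median log2 difference of -0.02. At 6 h 0 of 41 were called, against 0% of all genes, and 26 were lower and 15 higher, with a median of -0.02. An unadjusted p under 0.05 was found for 4 of 41 members at 12 h, against 7.21% of all genes, and for 4 of 41 at 6 h, against 4.64%. No test of these counts was made. At 12 h these were PSMC3, PSMB8 and PSMF1 with lower signals in GPI-PLD cells and the base chaperone PSMD9 with a higher one (0.29 ± 0.11, adjusted p = 0.655). At 6 h they were PSMC6 and PSMA7 with lower and PSMF1 and PSME4 with higher signals. The comparisons by time, by virus and of their interaction use the same 16 arrays.

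The 95% intervals of 37 of 41 members held 0 at each time. At the median they reached 0.22 to each side on the log2 scale, a factor of 1.16, against 0.35 for all genes tested. The members' bounds ran from 0.41 to 2.16 as folds at 12 h and from 0.476 to 1.51 at 6 h, so the data do not show that the viruses act alike on every gene.

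**Figure D4:**
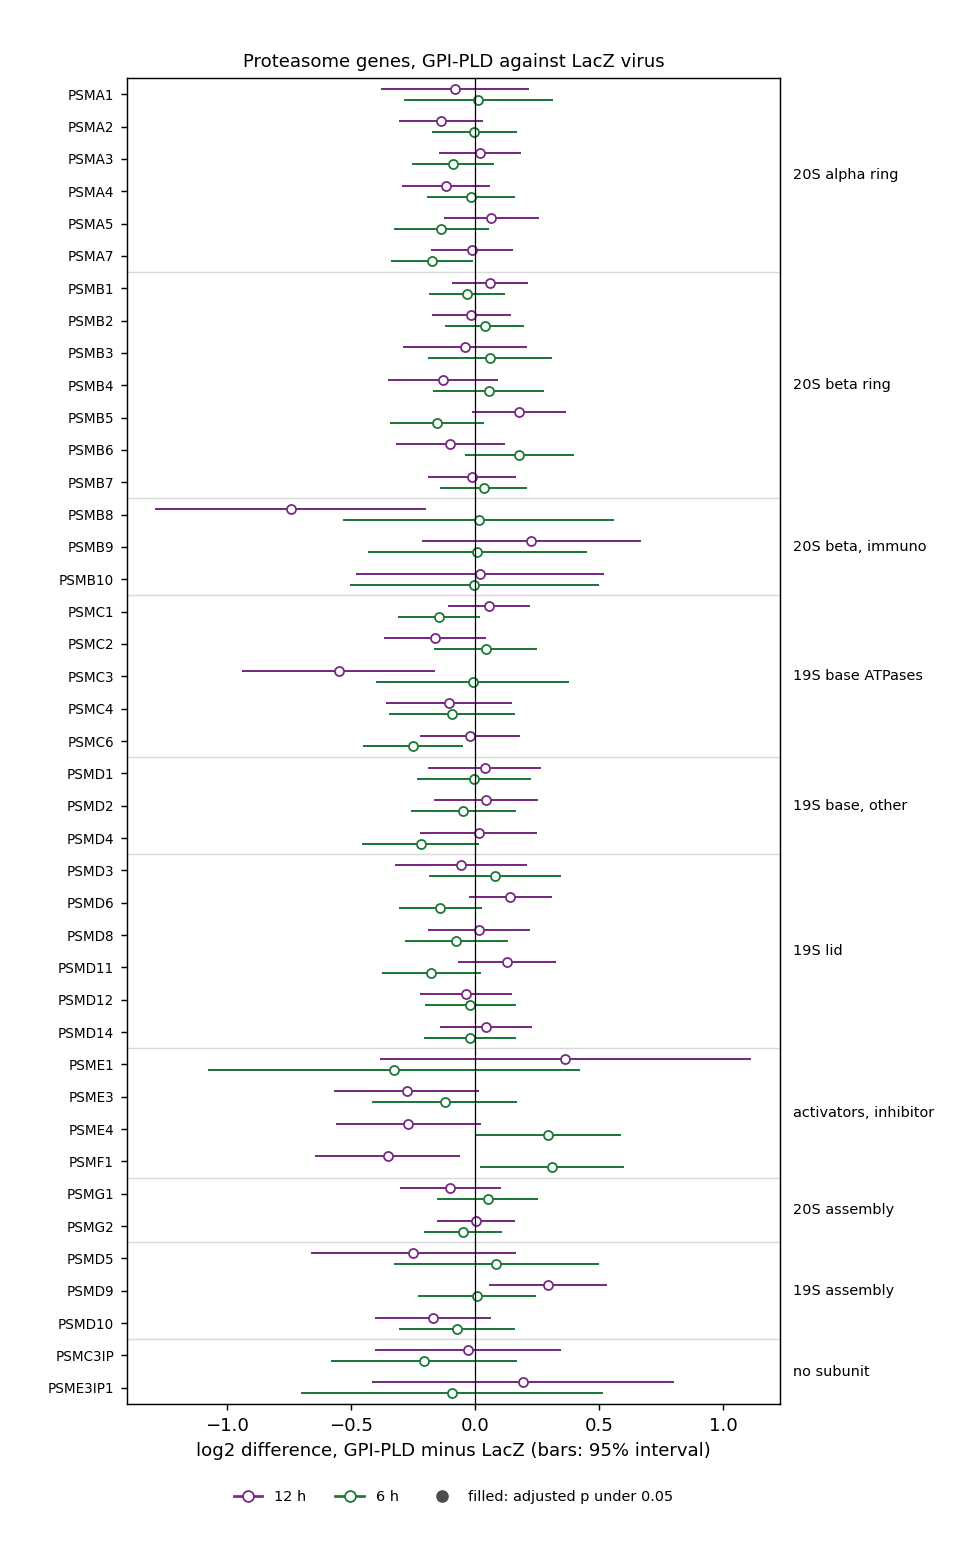
Log2 difference between GPI-PLD and LacZ cells for each of the 41 members, with its 95% interval, at 12 h (purple) and 6 h (green), grouped by place in the complex. No point is filled, since none had an adjusted p under 0.05, and the lowest is PSMB8 at 12 h (-0.74).

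PSMC3 (201267_s_at), an ATPase of the base, had the smallest p at 12 h. Its signals were 1341, 1455, 1308 and 2366 at 12 h in GPI-PLD cells, against 1819, 2153, 2866 and 2616 in LacZ cells. At 6 h they were 2197, 2026, 3501 and 1971 in GPI-PLD cells, against 2499, 2694, 2286 and 2062 in LacZ cells. At 12 h 3 GPI-PLD arrays lay below all LacZ arrays and replicate 4 within them, and at 6 h the groups overlapped. The log2 difference was -0.55 ± 0.19 at 12 h (adjusted p = 0.525) and -0.01 ± 0.19 at 6 h. PSMB8, with the next smallest p, had -0.74 ± 0.26 at 12 h (adjusted p = 0.588), where all GPI-PLD arrays, given above, lay below all LacZ arrays, at the closest 526.7 against 527.7, and 0.01 ± 0.26 at 6 h.

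At 6 h the smallest p belonged to PSMC6 (201699_at), also an ATPase. Its signals were 3062, 3209.6, 2995 and 3236 at 6 h in GPI-PLD cells, against 3786, 3569, 3351 and 4282 in LacZ cells, with no overlap. At 12 h they were 3121, 3024, 3241 and 2491 in GPI-PLD cells, against 3030.1, 3088, 2966 and 2909 in LacZ cells, and overlapped. PSMC6 had a log2 difference of -0.25 ± 0.10 at 6 h (adjusted p = 0.997) and -0.02 ± 0.10 at 12 h. PSMA7, next in order, had -0.17 ± 0.08 at 6 h (adjusted p = 0.998), with overlapping arrays.

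The time effect was not shown to differ between the viruses for any member. The interaction, the virus difference at 12 h minus that at 6 h, was called for 0 of 41 members (limma), against 0.0123% of all genes, which is 1 gene. An unadjusted p under 0.05 was found for 5 of 41 members, 2 lower and 3 higher, against 7.53% of all genes, and no test of this count was made. The 2 with the smallest p were the inhibitor PSMF1 and the activator PSME4.

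PSMF1 (201052_s_at), which binds the core and inhibits it in vitro, had signals of 2548, 2493, 2379 and 3575 at 12 h in GPI-PLD cells, against 3563, 2811, 3596 and 4084 in LacZ cells. At 6 h they were 3443, 3853, 3439.7 and 3343 in GPI-PLD cells, against 3411, 3025, 2876 and 2139 in LacZ cells. The GPI-PLD arrays were mostly below the LacZ arrays at 12 h and mostly above them at 6 h, with overlap at both times. The log2 difference between the viruses was -0.35 ± 0.14 at 12 h and 0.31 ± 0.14 at 6 h, and the interaction -0.66 ± 0.20 (adjusted p = 0.440). Its second probe set had an interaction of -0.43 ± 0.20.

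PSME4 (PA200, 212219_at), a nuclear activator linked to degradation of acetylated histones, had signals of 1758, 2608, 2164 and 1863 at 12 h in GPI-PLD cells, against 2028, 3399, 2559.6 and 2258 in LacZ cells. At 6 h they were 2553, 2251, 2541 and 2944 in GPI-PLD cells, against 2076, 2241, 2089 and 1909 in LacZ cells. At 6 h all GPI-PLD arrays lay above all LacZ arrays, and at 12 h the groups overlapped. The interaction was -0.56 ± 0.20 (adjusted p = 0.468). Its other 2 probe sets had interactions of 0.13 ± 0.40 and 0.01 ± 0.22, so they did not show the pattern of the brightest one.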

How the data were processed

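The authors deposited MAS5 intensity values on a linear scale, per the submitters' processing notes, for 16 arrays made from 10 microgram of RNA each. The deposited 2% trimmed means were 1000 in every array. For other steps the methods are not given in the sources used here. Neither replicate numbers nor batches are in the labels, so arrays were numbered in deposited order. Whether they stem from separate cultures is not stated, and the p-values reflect only the spread between these arrays, which may be technical.

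Of 22283 probe sets, 68 were controls, 1043 had several symbols and 2107 none. Signals were analysed as log2(signal + 63), 63 being their 20th percentile. The brightest probe set of 1 symbol stood for each gene. A floor at the 40th percentile of mean signals (188) kept 8102 genes for testing. The 4 groups were fitted in limma 3.58.1 (R 4.3.3, statmod 1.5.0) through lmFit, contrasts.fit and eBayes, trend and robust set, on 12 residual degrees of freedom and 10.5 prior ones at the median. Adjusted p-values are Benjamini-Hochberg over all genes of a contrast, called under 0.05. Errors after log2 differences are standard errors, and those after signals standard deviations.

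The members and lists were chosen with earlier results of these data known. Array values are given for the 4 called members with the largest change each way in each time contrast and the 2 with the smallest p in each other contrast. Other lists name their called genes, and NFE2L1. Alternatives were quantile normalization, 75th percentile scaling, no or 4 times the pseudocount, no filter or the 60th percentile, averaged probe sets per gene, every probe set, eBayes without trend and robust, only the groups compared, and each array left out. The number of arrays limits the precision. The fit was tested on simulated data. Python 3.11.15, pandas 2.3.3 and matplotlib 3.10.9 read and plotted tables.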

Additional observations from a re-analysis of the deposited data

Results flagged for a closer look

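In the 12 members with array values, 48 groups of 4 arrays were searched for an array far from the rest of its group, by the gap to the nearest array over the group's range (Dixon's test). Chance gives about 1 such group in 20, and 2 were found. PSMC1 in LacZ 6 h replicate 2 had a signal of 7964, against 9272 to 9465 in the other 3 arrays (gap over range 0.880). PSMF1 in GPI-PLD 12 h replicate 4 had 3575, against 2379 to 2548 in the others (0.832).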

How the results depend on the processing

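The number of members called lower with time in GPI-PLD cells was 4, and it was 2 under each of quantile normalization, no filter, every probe set and eBayes without trend and robust. It was 2 to 5 over the runs that left out 1 array, with 2 when replicate 2 or 3 of GPI-PLD 6 h, replicate 3 of GPI-PLD 12 h, or replicate 2 of LacZ 12 h was omitted. Counts over all genes moved as well. In GPI-PLD cells 411 were called lower, and 377, 348, 510 (probe sets) and 302 under those settings in that order. Without those arrays, in that order, 293, 256, 363 and 381 were called lower. In LacZ cells the number of members called lower was 6, and 2 under eBayes without trend and robust. It was 2 to 7 over the left-out arrays (2 without LacZ 12 h replicate 1, 3 without LacZ 12 h replicate 4). Of all genes, 263 were called lower there, 178 under that eBayes setting, and 189 and 204 without those arrays. With both viruses averaged the number of members called lower was 9, and 15 under 75th percentile scaling, with 8 to 14 (14 without LacZ 6 h replicate 4). Of all genes, 675 were then called lower, 839 under that scaling and 649 without that array. For the virus difference at 12 h, at 6 h and the interaction the number of members called was 0 in every alternative run. No sign changed in the time differences of PSMB8, PSMA2, PSMD10 and PSMB6 in GPI-PLD cells and of PSMD11, PSMA7, PSMB5 and PSMC1 in LacZ cells, the virus differences of PSMC3 and PSMB8 at 12 h and PSMC6 and PSMA7 at 6 h, and the interactions of PSMF1 and PSME4. Signs of other member differences were not compared. Over the alternatives other than every probe set, the members' median time effect was -0.15 to -0.11 in GPI-PLD cells, -0.20 to -0.12 in LacZ cells and -0.18 to -0.11 averaged, while the median of all genes stayed within -0.04 and 0.05. Of 26 alternatives, the call in GPI-PLD cells was kept in 25 for PSMA2, 24 for PSMB8, 14 for PSMB6 and 10 for PSMD10. In LacZ cells it was kept in 26 for PSMA7 and PSMD11, 21 for PSMB5, 19 for PSMA2 and PSMC1 and 16 for PSMA3. The cause of these losses was not tested. No paired analysis was possible because the labels give no replicate numbers. Signals near 63 have little resolution, since 63 is added to each.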

Other observations

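5 probe sets carry a member symbol beside another gene's symbol and were left out of the counts above. The probe set of PSME2, the second PA28 subunit, shared with MIR7703, had log2 time differences of -0.12 ± 0.08 in GPI-PLD cells and -0.29 ± 0.08 in LacZ cells. Those of PSMA6, the alpha ring subunit, shared with PRORP, had -0.20 ± 0.10 and -0.21 ± 0.07 in GPI-PLD cells and -0.14 ± 0.10 and -0.10 ± 0.07 in LacZ cells. A pair shared by C7orf25 and PSMA2 was dim and had differences of -0.05 ± 0.40 and 0.14 ± 0.35 in GPI-PLD cells and 0.84 ± 0.40 and -0.27 ± 0.35 in LacZ cells. None of the 5 was called in either cell set in the limma fit of every probe set. Averaged over both viruses 4 of 5 had a lower signal at 12 h, and that of PSME2 fell (-0.20 ± 0.06, adjusted p = 0.0393).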
